A study of Mus musculus with 9 samples.

Results

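The genes described here are 41 genes of the lysosome and of autophagy, chosen by name: 4 regulators of lysosomal gene expression, 5 proteins of the lysosomal membrane, 7 peptidases, 5 glycosidases, 5 phosphatases, sphingolipid activators and related proteins, 3 parts or partners of the proton pump, 5 ATG8 proteins, 1 cargo receptor, and 6 genes that start or extend the autophagosome. Each symbol was looked up in a table of 24819 gene symbols, and a row was found for 41 of 41. All 41 also passed the filter on low values, which asked for 3 of 9 libraries with 1 FPKM or more and left 12330 genes for testing.

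The RNA came from E14, a long-established mouse embryonic stem cell line, so what follows holds for 1 line. It was grown on gelatin, and the labels name no feeder cells, genetic change or other treatment. In the group called ES the cells were kept in high-glucose DMEM with fetal bovine serum, non-essential amino acids and leukemia inhibitory factor (LIF). In the group called 2iLIF the medium was N2B27, which has no serum, supplemented with LIF and the 2i inhibitors that block MEK and GSK3, and the group called EPSCM was kept in expanded potential stem cell medium. The 3 media differ in several components together, and the share of each in a difference was not tested. Each medium has 3 libraries of messenger RNA. The labels do not say that they came from separate cultures, so a p-value here speaks of the spread among these libraries alone, and that spread may be technical.

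Lysosomes are acidic compartments in which hydrolases break down protein, lipid, glycan and nucleic acid, and autophagy delivers the cell's own material to them inside a double-membraned vesicle marked by lipid-bound ATG8 proteins. Many of these genes form a coordinated set, the CLEAR network, that is switched on by the transcription factors TFEB, TFE3 and MITF. Their entry into the nucleus depends on mTORC1, which signals from the lysosomal surface, and on folliculin (Flcn) with its partners Fnip1 and Fnip2. In mouse embryonic stem cells Flcn is known as a gene needed for exit from self-renewal, because it keeps Tfe3 out of the nucleus. Neither protein level, nuclear position nor flux through autophagy was measured here, only messenger RNA.

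Levels are in FPKM, fragments scaled by transcript length and library total, given per library or as mean ± SD (n = 3 libraries). Differences of log2(FPKM + 1) carry their SE, and this scale understates the change where values are low. Higher and lower mean a limma adjusted p below 0.05, adjusted over all tested genes, and a gene is said to pass the fold limit when the log2 difference is also at least 1 in size. The table holds no fragment counts, so the depth behind a single value is unknown.

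One library of each medium stood apart from the other 2 in earlier results of these data: ES replicate 1, 2iLIF replicate 1 and EPSCM replicate 2 (replicate numbers follow the order of the samples and pair nothing). In the labels these carry the library numbers 16, 18 and 19, the highest of the 9, and the labels do not say what the numbers stand for. Fits that use this split draw on the data they test, so a call gained with them is no added support. Across tested genes, log2 values of libraries of 1 medium correlated at r = 0.9855 to 0.9902 in pairs with such a library and at 0.9959 to 0.9967 in the other pairs, and genes are not independent replicates. Library sums ranged from 546636 to 600728 FPKM. All 10 embryonic stem cell markers looked at, Pou5f1, Sox2 and Nanog among them, were above 1 FPKM in each medium. Their levels differed between media, and not all in 1 direction. In ES, 2iLIF and EPSCM, Pou5f1 was at 1352, 1064 and 627 FPKM, Zfp42 at 534, 404 and 163, and Fgf4 at 85.3, 88.8 and 165.

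As a sum, the 41 genes were at a higher level in 2iLIF and in EPSCM than in ES. Summed over the 41 genes, the 3 ES libraries held 1539, 1436 and 1421 FPKM, the 2iLIF libraries 3240, 3037 and 3032, and the EPSCM libraries 2838, 3055 and 2839. The lowest 2iLIF or EPSCM library was thus far above the highest ES library. The 2iLIF and EPSCM sums overlapped through EPSCM replicate 2, a library that stands apart. As a share of all FPKM in a library this was 0.251% to 0.256% in ES, 0.554% to 0.558% in 2iLIF and 0.510% to 0.523% in EPSCM, without overlap between media. In bulk RNA, more RNA per cell and more cells of a kind that express these genes cannot be told apart.

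Counted gene by gene, 31 of 41 were higher in 2iLIF than in ES (75.6%, where 34.8% of all tested genes were higher) and 5 were lower (12.2% against 32.2%). With the fold limit, 20 were higher (48.8%, beside 7.62% of tested genes) and 1 lower (2.44%, beside 7.12%). Between EPSCM and ES, 30 were higher (73.2%, where 41.6% of all tested genes were higher) and 2 lower (4.88% against 31.5%). With the fold limit these counts were 16 (39.0%, beside 11.7%) and 2 (4.88%, beside 7.97%). The median log2 difference of the 41 genes was 0.93 for 2iLIF against ES and 0.69 for EPSCM against ES, while the medians over all tested genes were 0.03 and 0.09. These comparisons share the ES libraries, so they are not independent of each other.

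Between EPSCM and 2iLIF the genes were divided. Of 41, 16 were higher in EPSCM (39.0%, where 36.6% of all tested genes were higher) and 18 lower (43.9%, where 31.4% were lower). Few of these differences were large: with the fold limit 3 were higher, Acp5, Scarb2 and Wipi1, beside 10.1% of tested genes, and 2 lower, Ctsc and Acp2, beside 5.91%. The median log2 difference was -0.08, against 0.03 for all tested genes. Calls on 4 genes rested on single libraries. Neu1 was lost without ES replicate 3, 2iLIF replicate 2 or 3 or EPSCM replicate 2 (adjusted p = 0.0512 to 0.114), and Becn1 without 2iLIF replicate 1 or 3 or any EPSCM replicate (adjusted p = 0.0560 to 0.0775). Atp6ap1 was lost without 2iLIF replicate 2 or 3 or EPSCM replicate 2 (adjusted p = 0.0790 to 0.0868), and Ulk1 without EPSCM replicate 3 (adjusted p = 0.0527). The plot of log2 differences shows the genes in role order.

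**Figure D1:**
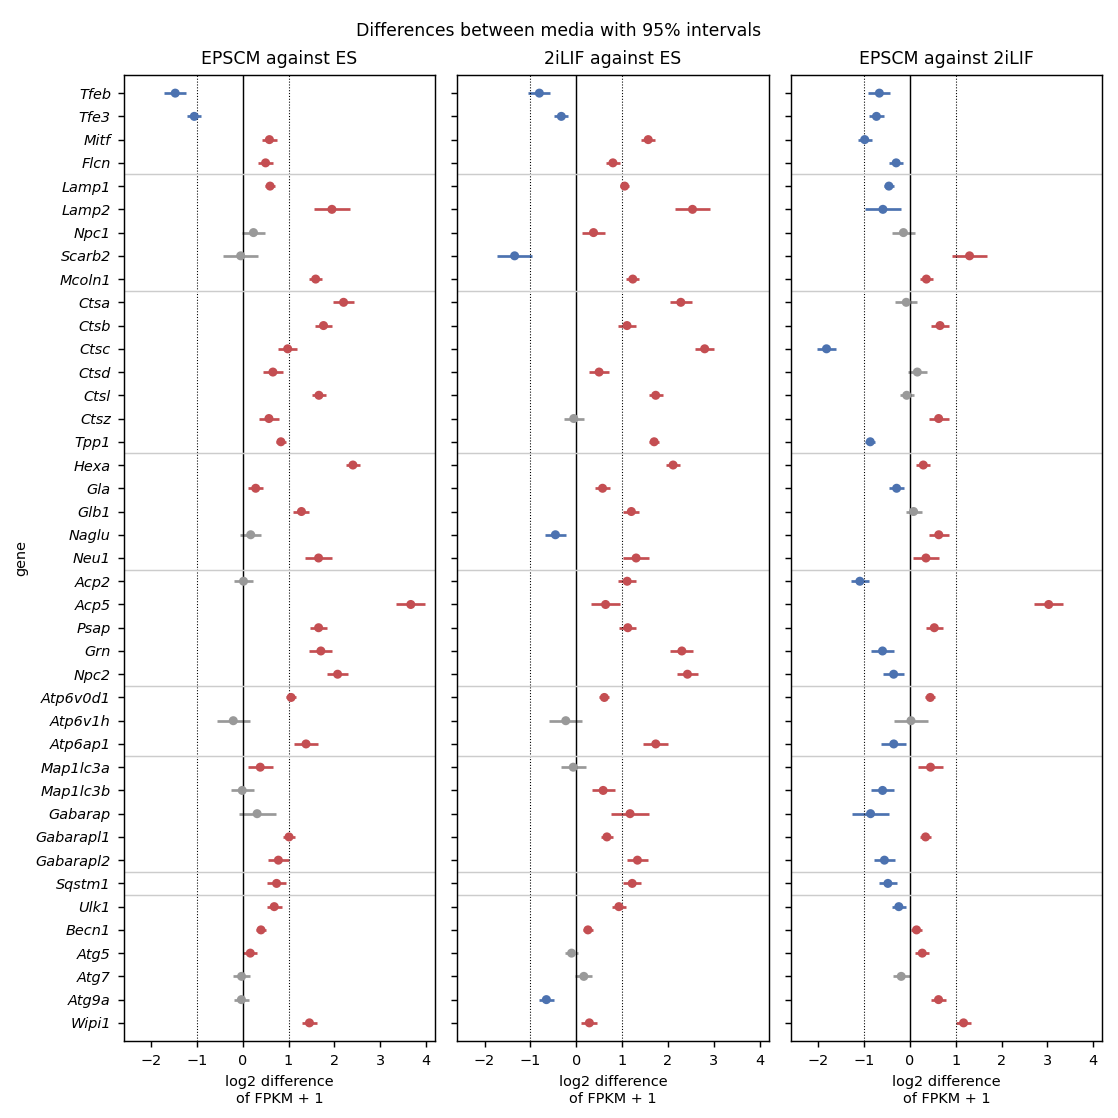
Log2 difference in log2(FPKM + 1) with its 95% interval for the 41 genes, grouped by role, in EPSCM against ES, 2iLIF against ES and EPSCM against 2iLIF. Red points are higher and blue points lower at an adjusted p under 0.05, grey points did not pass, and dotted lines mark the fold limit of 1 in either direction. Most points lie to the right of 0 in the panels against ES, with Tfeb and Tfe3 blue to the left in both. Scarb2, Naglu and Atg9a are also blue in 2iLIF against ES. The points lie on both sides of 0 in the panel of EPSCM against 2iLIF.

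The regulators did not move as 1 group. Tfeb, a master activator of the network, was at 41.3, 34.4 and 36.7 FPKM in ES, 23.5, 19 and 20.6 in 2iLIF and 11.9, 14.5 and 12.2 in EPSCM. Its relative Tfe3 was at 45.9, 41.2 and 42.0 FPKM in ES, 36.7, 33.1 and 32.6 in 2iLIF and 19.3, 21.3 and 19.9 in EPSCM. For both genes the 3 media did not overlap, ES was highest and EPSCM lowest. Tfeb fell by 1.47 ± 0.10 on the log2 scale from ES to EPSCM (adjusted p = 2.02e-06) and by 0.81 ± 0.10 from ES to 2iLIF (adjusted p = 1.3e-04), and the difference of EPSCM against 2iLIF was -0.67 ± 0.10 (adjusted p = 4.11e-04). Tfe3 fell from ES to EPSCM by 1.06 ± 0.07 (adjusted p = 1.18e-06), from ES to 2iLIF by 0.33 ± 0.07 (adjusted p = 0.00252) and from 2iLIF to EPSCM by 0.73 ± 0.07 (adjusted p = 1.5e-05). They were the 2 genes of the 41 with all ES libraries above the other 6 (19.5% of all tested genes had this pattern) and also the 2 with all EPSCM libraries below the other 6 (19.5% of tested genes).

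Mitf, the third activator of the family and best known from pigment cells, ran the other way. It was at 2.17, 2.61 and 2.35 FPKM in ES, 8.47, 9.59 and 8.97 in 2iLIF and 4.14, 3.99 and 4.01 in EPSCM. It was higher than in ES by 1.57 ± 0.07 in 2iLIF (adjusted p = 1.25e-07) and by 0.58 ± 0.07 in EPSCM (adjusted p = 5.44e-05), and its level stayed below that of Tfeb and Tfe3 in every library. Flcn was at 19.4, 17.8 and 18 FPKM in ES, 35.9, 30.9 and 31.4 in 2iLIF and 26.0, 27.2 and 25.8 in EPSCM, again without overlap between media. It rose from ES by 0.80 ± 0.07 in 2iLIF (adjusted p = 8.41e-06) and by 0.50 ± 0.07 in EPSCM (adjusted p = 1.42e-04), and EPSCM against 2iLIF was -0.30 ± 0.07 (adjusted p = 0.0037). Summed over the 4 regulators, the level was 101 ± 6.64 FPKM in ES, 96.9 ± 6.60 in 2iLIF and 63.5 ± 3.10 in EPSCM, so their sum did not follow that of the 41 genes.

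**Figure D2:**
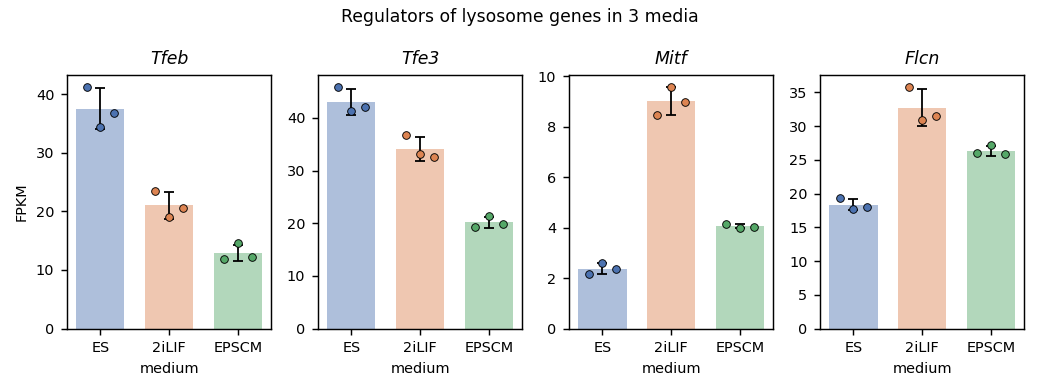
FPKM of Tfeb, Tfe3, Mitf and Flcn in ES, 2iLIF and EPSCM; bars are means, error bars SD over 3 libraries and points single libraries. Tfeb and Tfe3 step down from ES to 2iLIF to EPSCM, while Mitf and Flcn are lowest in ES and highest in 2iLIF.

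TFEB, TFE3 and MITF bind an E-box, CACGTG, and in the CLEAR element its longer form TCACGTGA. Both were searched in the 300 bases from 250 before to 50 after the annotated start sites, from RefSeq on GRCm38.p6; the FPKM values were made on mm9, so the windows describe the genes and not the measured fragments. TCACGTGA reads the same on both strands and contains CACGTG, and TCATGTG, the M-box, was searched as CACATGA on the other strand. Of the 41 genes 36 had a window, and Becn1, Atp6v1h, Map1lc3a, Npc1 and Ctsb had none. TCACGTGA stood in the windows of 5 genes, Mcoln1, Ctsa, Ctsd, Gla and Atp6v0d1, which is 13.9% of 36; 2.21% of the 9689 tested genes with a window and 0.974% of all 32851 windows held it. CACGTG stood in 11 (30.6%, against 12.2% of tested genes and 7.15% of windows), and the M-box in 6, Acp5, Ctsa, Gla, Grn, Scarb2 and Tpp1 (16.7%, against 2.52% and 3.77%). A match is a run of letters and not a shown binding site.

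The 5 windows with TCACGTGA are printed because these genes serve different parts of the organelle: a calcium channel, 2 peptidases, a glycosidase and a proton pump subunit. Lamp1 is printed for its 4 copies of CACGTG, and Acp5 for the M-box of the gene with the largest difference among the 41 in EPSCM against ES. Each sequence runs 5′ to 3′ on the gene's strand over 265 bases, 250 before the start site and 15 from it on. Capitals mark TCACGTGA in the first 5, CACGTG in Lamp1 and CACATGA in Acp5.
Mcoln1: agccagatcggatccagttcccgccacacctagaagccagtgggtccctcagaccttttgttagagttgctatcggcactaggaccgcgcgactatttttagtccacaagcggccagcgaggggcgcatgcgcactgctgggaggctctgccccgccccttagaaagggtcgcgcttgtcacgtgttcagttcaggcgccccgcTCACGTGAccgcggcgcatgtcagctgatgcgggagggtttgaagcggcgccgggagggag
Ctsa: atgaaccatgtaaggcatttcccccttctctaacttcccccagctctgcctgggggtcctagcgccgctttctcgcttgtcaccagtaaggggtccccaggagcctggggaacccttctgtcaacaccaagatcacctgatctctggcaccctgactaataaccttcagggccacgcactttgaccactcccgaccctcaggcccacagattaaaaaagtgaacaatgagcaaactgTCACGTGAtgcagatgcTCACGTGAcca
Ctsd: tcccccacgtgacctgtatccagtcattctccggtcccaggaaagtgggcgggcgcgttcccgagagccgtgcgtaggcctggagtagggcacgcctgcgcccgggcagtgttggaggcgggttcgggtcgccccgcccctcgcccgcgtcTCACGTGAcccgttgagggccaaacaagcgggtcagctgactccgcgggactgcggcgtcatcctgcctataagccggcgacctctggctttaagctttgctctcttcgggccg
Gla: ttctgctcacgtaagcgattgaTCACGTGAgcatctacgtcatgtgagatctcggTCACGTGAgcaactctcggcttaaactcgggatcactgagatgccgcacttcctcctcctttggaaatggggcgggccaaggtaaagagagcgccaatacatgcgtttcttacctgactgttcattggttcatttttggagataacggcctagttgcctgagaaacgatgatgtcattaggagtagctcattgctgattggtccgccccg
Atp6v0d1: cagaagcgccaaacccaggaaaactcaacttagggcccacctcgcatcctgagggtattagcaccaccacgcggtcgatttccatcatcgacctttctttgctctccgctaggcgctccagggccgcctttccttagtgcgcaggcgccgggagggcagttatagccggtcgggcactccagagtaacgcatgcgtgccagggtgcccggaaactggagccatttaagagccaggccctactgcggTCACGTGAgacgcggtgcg
Lamp1: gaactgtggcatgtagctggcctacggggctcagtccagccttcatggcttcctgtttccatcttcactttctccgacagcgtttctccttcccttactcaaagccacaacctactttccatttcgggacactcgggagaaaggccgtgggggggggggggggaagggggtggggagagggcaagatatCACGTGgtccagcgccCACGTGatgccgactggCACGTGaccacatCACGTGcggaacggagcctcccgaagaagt
Acp5: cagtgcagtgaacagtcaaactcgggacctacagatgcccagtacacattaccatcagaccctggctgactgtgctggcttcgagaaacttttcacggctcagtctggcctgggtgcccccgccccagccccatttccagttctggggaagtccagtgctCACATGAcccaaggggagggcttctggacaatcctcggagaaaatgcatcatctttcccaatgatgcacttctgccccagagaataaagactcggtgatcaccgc

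Counted from the start site as 0, the first base of TCACGTGA lay at -46 in Mcoln1 (chr8:3500269-3500533, plus strand), at -99 in Ctsd (chr7:142387813-142388077, minus strand) and at -4 in Atp6v0d1 (chr8:105566050-105566314, minus strand). Ctsa held it at -13 and at 4 in the downstream of its 2 annotated windows (chr2:164833523-164833787, plus strand), and Gla at -228 and -195 (chrX:134600991-134601255, minus strand). In Lamp1 (chr8:13158911-13159175, plus strand) CACGTG began at -61, -45, -28 and -15, and in Acp5 (chr9:22130584-22130848, minus strand) CACATGA began at -90.

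Of the lysosomal membrane genes, Lamp1 and Lamp2 encode the abundant glycoproteins that line the lysosome. Lamp1, with the 4 E-boxes above, was at 185, 184 and 181 FPKM in ES, 374, 387 and 384 in 2iLIF and 282, 270.2 and 281 in EPSCM, and the media did not overlap. It was higher than in ES by 1.05 ± 0.05 in 2iLIF (adjusted p = 1.13e-07) and by 0.60 ± 0.05 in EPSCM (adjusted p = 3.06e-06). Lamp2 was lower throughout, at 5.27, 8.09 and 6.02 FPKM in ES, 35.9, 46.4 and 43.5 in 2iLIF and 29.9, 22.2 and 31.0 in EPSCM, and rose by 2.53 ± 0.17 in 2iLIF (adjusted p = 1.79e-06) and by 1.95 ± 0.17 in EPSCM (adjusted p = 7.45e-06). In each medium the library that stands apart had the lowest Lamp2 value, and ES held the widest spread of any gene and medium here (coefficient of variation 22.6%, median over genes and media 8.42%).

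Mcoln1, which encodes the calcium channel TRPML1 of the lysosomal membrane, was at 12.3, 11.7 and 11.5 FPKM in ES, 30.6, 29.0 and 27.9 in 2iLIF and 36.1, 40.3 and 36.8 in EPSCM. EPSCM was highest and ES lowest without overlap, and it rose from ES by 1.59 ± 0.06 in EPSCM (adjusted p = 6.89e-08) and by 1.23 ± 0.06 in 2iLIF (adjusted p = 2.86e-07), with 0.36 ± 0.06 for EPSCM against 2iLIF (adjusted p = 7.13e-04). Scarb2, the receptor that carries glucocerebrosidase to the lysosome, departed from this order. It was at 18.7, 25.6 and 23.9 FPKM in ES, 6.89, 8.83 and 9.23 in 2iLIF and 24, 17.4 and 24.8 in EPSCM. All 2iLIF libraries were below the other 6, the ES and EPSCM libraries overlapped, and the gene fell by 1.35 ± 0.17 from ES to 2iLIF (adjusted p = 9.35e-05) while EPSCM against ES was -0.04 ± 0.17 (adjusted p = 0.819). It was the 1 gene of the 41 that was lower in 2iLIF than in ES by more than the fold limit.

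Npc1, the membrane protein that exports cholesterol from the lysosome, was at 9.05 ± 0.867 FPKM in ES, 12 ± 0.836 in 2iLIF and 10.9 ± 1.53 in EPSCM. It was higher in 2iLIF than in ES by 0.38 ± 0.11 (adjusted p = 0.0126), a call lost with quantile normalization at 0.26 (adjusted p = 0.0550), and EPSCM against ES did not pass at 0.23 ± 0.11 (adjusted p = 0.0761). Without EPSCM replicate 2, a library that stands apart, that difference was 0.34 and passed (adjusted p = 0.0110), and it passed at 0.23 when the fit included these libraries as a covariate (adjusted p = 9.93e-04). Npc2, the soluble partner that hands cholesterol to Npc1, was at 41.1, 35.8 and 33.0 FPKM in ES, 223, 189.9 and 190.2 in 2iLIF and 149, 174 and 148 in EPSCM. Its media did not overlap, and it rose by 2.42 ± 0.10 in 2iLIF (adjusted p = 1.07e-07) and by 2.07 ± 0.10 in EPSCM (adjusted p = 2.43e-07).

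The peptidases summed to 296 ± 22.6 FPKM in ES, 606 ± 40.1 in 2iLIF and 645 ± 48.6 in EPSCM, and their order between the latter pair of media differed from gene to gene. Ctsb, a cysteine cathepsin, was at 35.0, 32.2 and 30.8 FPKM in ES, 77.3, 69.0 and 68.2 in 2iLIF and 106, 125 and 109 in EPSCM, highest in EPSCM without overlap. It rose by 1.76 ± 0.08 from ES to EPSCM (adjusted p = 1.83e-07), and EPSCM was 0.66 ± 0.08 above 2iLIF (adjusted p = 1.04e-04). Ctsc, the dipeptidyl peptidase that activates serine proteases, was at 1.89, 2.28 and 1.80 FPKM in ES, 18.4, 21.3 and 19.8 in 2iLIF and 5.19, 4.35 and 5.18 in EPSCM. Here 2iLIF stood far above both other media. Mean FPKM was 9.96 times that of ES in 2iLIF and 2.46 times in EPSCM, with log2 differences of 2.80 ± 0.09 (adjusted p = 2.29e-08) and 0.98 ± 0.09 (adjusted p = 1.13e-05), and EPSCM against 2iLIF was -1.82 ± 0.09 (adjusted p = 2.65e-07). The EPSCM difference was just under the fold limit and passed it in 6 of 22 alternative settings: at 1.26 with a pseudocount of 0.1 FPKM, 1.10 with array weights, 1.01 when scaled to the same sum, 1.03 without the libraries that stand apart, and 1.05 without ES replicate 2 or without EPSCM replicate 2.

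Ctsl, another cysteine cathepsin, was at 37.3, 33.0 and 31.4 FPKM in ES, 121, 112 and 111 in 2iLIF and 109, 110.1 and 109 in EPSCM. Ctsa, which encodes protective protein for beta-galactosidase and neuraminidase and carries 2 copies of TCACGTGA in the window above, was at 19.6, 16.2 and 16.8 FPKM in ES, 98.7, 83.2 and 85.3 in 2iLIF and 78.2, 94.6 and 80.0 in EPSCM. Both genes were far higher than in ES in every 2iLIF and EPSCM library, and their values in those 2 media were close. Ctsa rose by 2.28 ± 0.10 in 2iLIF (adjusted p = 1.49e-07) and by 2.20 ± 0.10 in EPSCM (adjusted p = 1.75e-07), and EPSCM against 2iLIF was -0.08 with a 95% interval from -0.31 to 0.15. Ctsl rose by 1.73 ± 0.07 in 2iLIF (adjusted p = 6.95e-08) and by 1.66 ± 0.07 in EPSCM (adjusted p = 9.14e-08).

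Tpp1, a tripeptidyl peptidase lost in a childhood storage disease, was at 16.8, 17.7 and 17.9 FPKM in ES, 59.9, 58.5 and 58.4 in 2iLIF and 31.4, 32.8 and 31.5 in EPSCM. The spread was small, the media did not overlap, and 2iLIF exceeded ES by 1.70 ± 0.05 (adjusted p = 1.05e-08) and EPSCM exceeded ES by 0.83 ± 0.05 (adjusted p = 5.3e-07). Ctsd, the aspartic cathepsin with 1 copy of TCACGTGA, was abundant already in ES, at 162, 144 and 138 FPKM, against 231, 202 and 195 in 2iLIF and 221, 259 and 223 in EPSCM. It rose by 0.66 ± 0.09 in EPSCM (adjusted p = 1.85e-04) and by 0.50 ± 0.09 in 2iLIF (adjusted p = 0.0013), short of the fold limit, and EPSCM and 2iLIF overlapped. Ctsz, a carboxypeptidase, was higher in EPSCM (66.5 ± 6.88 FPKM) than in ES (44.4 ± 4.18) by 0.57 ± 0.09 (adjusted p = 4.91e-04), and its 2iLIF level was 42.7 ± 3.08.

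The 5 glycosidases summed to 71.7 ± 6.39 FPKM in ES, 214 ± 12 in 2iLIF and 247 ± 12 in EPSCM. Most of the difference was Hexa, the hexosaminidase subunit that is lost in Tay-Sachs disease. It was at 27.0, 24.4 and 23.5 FPKM in ES, 118, 109 and 107 in 2iLIF and 137, 142 and 130 in EPSCM, with no overlap between media. Mean FPKM was 4.45 times that of ES in 2iLIF (log2 difference 2.11 ± 0.07, adjusted p = 2.17e-08) and 5.46 times in EPSCM (2.40 ± 0.07, adjusted p = 1.4e-08). Glb1, the acid beta-galactosidase, was at 31.1 ± 3.16 FPKM in ES, 72.5 ± 4.19 in 2iLIF and 76.7 ± 2.55 in EPSCM, higher by 1.20 ± 0.08 (adjusted p = 1.39e-06) and 1.28 ± 0.08 (adjusted p = 7.29e-07). Neu1, the lysosomal sialidase, was at 6.44 ± 0.538 FPKM in ES, 17.5 ± 2.59 in 2iLIF and 22.5 ± 3.51 in EPSCM and rose past the fold limit in both media, by 1.30 ± 0.13 and 1.66 ± 0.13.

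Gla, the alpha-galactosidase deficient in Fabry disease, carries 2 copies of TCACGTGA in its window and had smaller differences. It was at 7.31 ± 0.664 FPKM in ES, 11.3 ± 0.519 in 2iLIF and 9.10 ± 0.252 in EPSCM, differences from ES of 0.57 ± 0.07 (adjusted p = 9.13e-05) and 0.28 ± 0.07 (adjusted p = 0.00549). With quantile normalization the EPSCM difference no longer passed, at 0.11 (adjusted p = 0.168). Naglu, which removes N-acetylglucosamine from heparan sulfate, had the lowest levels of the 41 genes, 1.90 ± 0.384 FPKM in ES, 1.10 ± 0.0591 in 2iLIF and 2.26 ± 0.257 in EPSCM. It fell by 0.46 ± 0.10 from ES to 2iLIF (adjusted p = 0.00284), and EPSCM against ES did not pass at 0.17 ± 0.10 (adjusted p = 0.138). Without ES replicate 1 it was 0.28 and passed (adjusted p = 0.0159), and it passed at 0.17 when the fit took the split of the libraries as a covariate (adjusted p = 0.0457). Over 21 alternative settings this difference ranged from -0.06 to 0.28 (highest adjusted p = 0.667).

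**Figure D3:**
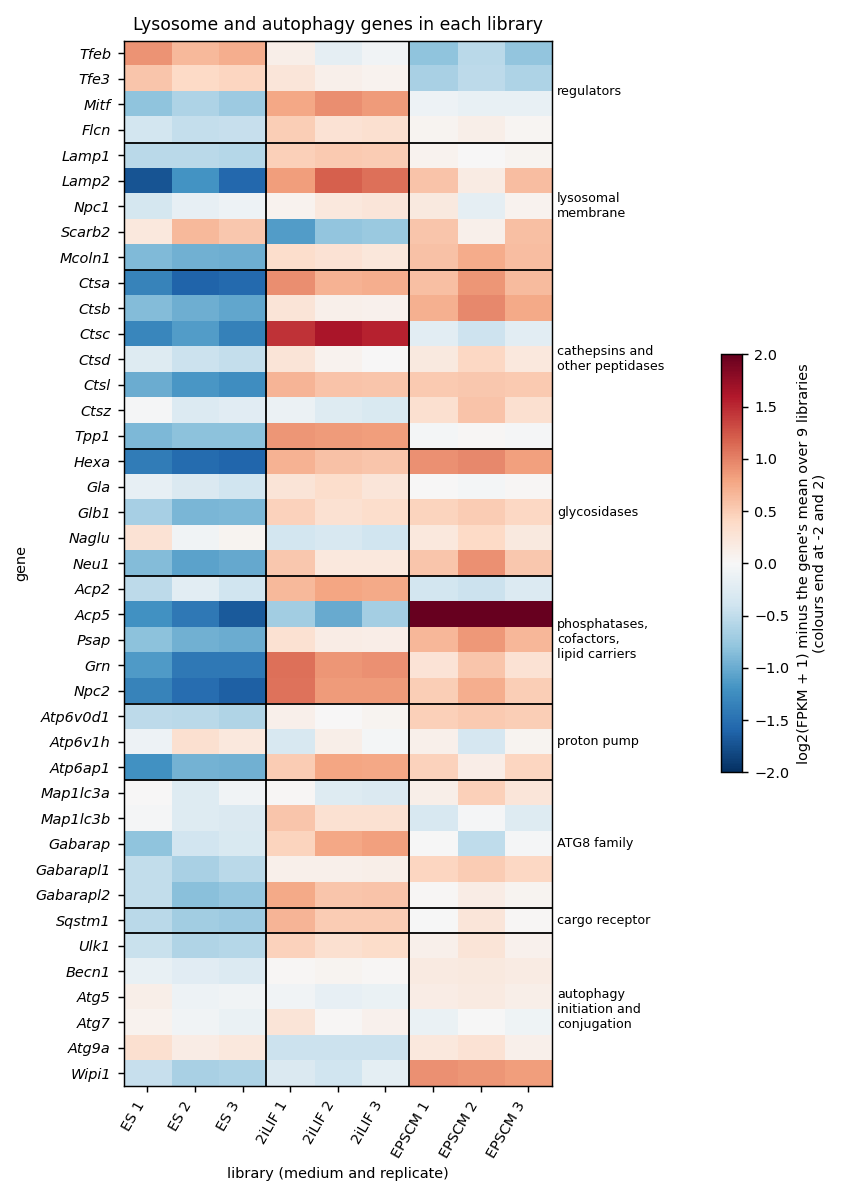
Log2(FPKM + 1) of each of the 41 genes in each of the 9 libraries, minus the gene's mean over the 9 libraries, with genes grouped by role and colours ending at -2 and 2. ES columns are mostly below the mean, with Tfeb and Tfe3 the other way round. Scarb2, Naglu and Atg9a are lowest in the 2iLIF columns, and Acp5 and Wipi1 stand out in the 3 EPSCM columns.

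Acp5, the tartrate-resistant acid phosphatase best known from osteoclasts and macrophages, had the largest difference of the 41 genes in EPSCM against ES. It was at 3.98, 3.29 and 2.61 FPKM in ES, 6.08, 4.72 and 6.17 in 2iLIF and 52.3, 59.5 and 48.0 in EPSCM. Every EPSCM library was far above the other 6, and mean FPKM in EPSCM was 16.2 times that of ES and 9.41 times that of 2iLIF. The log2 differences were 3.67 ± 0.14 (adjusted p = 6.14e-08) and 3.03 ± 0.14 (adjusted p = 1.56e-07), and 2iLIF was above ES by 0.64 ± 0.14 (adjusted p = 0.00298). Of 6 macrophage markers measured beside it, Adgre1 was at 0 in all 9 libraries, and Csf1r, Ptprc and Lyz2 were at or near 0. Itgam was below 1 FPKM and highest in EPSCM, at 0.149 FPKM in ES, 0.179 in 2iLIF and 0.471 in EPSCM. The summed level, nearly all of it Cd68, was 23.8 to 28.0 FPKM in ES, 21.0 to 22.7 in 2iLIF and 22.9 to 26.7 in EPSCM.

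Acp2, the other lysosomal acid phosphatase, had a different pattern. It was at 3.23, 4.22 and 3.60 FPKM in ES, 8.50, 9.48 and 9.27 in 2iLIF and 3.70, 3.48 and 4.01 in EPSCM. The 2iLIF libraries were above all others, 1.11 ± 0.09 above ES (adjusted p = 5.19e-06), and EPSCM against ES was 0.02 with a 95% interval from -0.18 to 0.22. That last value is the 1 direction among the 41 genes that turned past the threshold under another scaling, to -0.22 with quantile normalization (adjusted p = 0.0294).

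Psap encodes the precursor of the saposins, activators of sphingolipid breakdown. It was at 120.1, 109 and 106 FPKM in ES, 264, 235 and 235 in 2iLIF and 337, 389 and 338 in EPSCM, without overlap, and rose by 1.66 ± 0.08 in EPSCM (adjusted p = 2.23e-07) and by 1.12 ± 0.08 in 2iLIF (adjusted p = 2.87e-06). Grn, progranulin, which binds prosaposin and is cut into granulins in the lysosome, was at 47.1, 38.3 and 38.2 FPKM in ES, 227, 195 and 198 in 2iLIF and 128, 154 and 128 in EPSCM. Here the order of the latter media was the reverse, with differences from ES of 2.30 ± 0.11 in 2iLIF (adjusted p = 2.08e-07) and 1.71 ± 0.11 in EPSCM (adjusted p = 1.09e-06), and EPSCM against 2iLIF was -0.60 ± 0.11 (adjusted p = 0.00108). Acp2, Acp5, Psap, Grn and Npc2 together summed to 197 ± 16.7 FPKM in ES, 667 ± 53.3 in 2iLIF and 705 ± 65.0 in EPSCM.

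The proton pump that acidifies the lysosome was represented by 3 genes. Atp6v0d1, a subunit of its membrane sector with TCACGTGA across the start site, was at 63.0, 61.8 and 59.3 FPKM in ES, 97.3, 91.0 and 94.6 in 2iLIF and 127, 131 and 128 in EPSCM. The media did not overlap, and it rose by 1.06 ± 0.05 in EPSCM (adjusted p = 1.68e-07) and by 0.61 ± 0.05 in 2iLIF (adjusted p = 5.56e-06). The accessory subunit Atp6ap1 was at 21.2, 25.7 and 25.2 FPKM in ES, 72, 88.0 and 86.9 in 2iLIF and 69.5, 55.1 and 68.4 in EPSCM. It rose by 1.73 ± 0.12 in 2iLIF (adjusted p = 2.06e-06) and by 1.38 ± 0.12 in EPSCM (adjusted p = 6.78e-06), and in each medium the library that stands apart held its lowest value. Atp6v1h, a subunit of the cytosolic sector, did not pass in any comparison, at 41.3 ± 6.32 FPKM in ES, 35.1 ± 5.32 in 2iLIF and 35.7 ± 5.75 in EPSCM. Its EPSCM against ES difference was -0.21 with a 95% interval from -0.57 to 0.16, and it passed, at -0.21 (adjusted p = 0.00146), when the libraries that stand apart were a covariate. Over 21 alternative settings this difference ranged from -0.33 to -0.07 (highest adjusted p = 0.698).

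Of the ATG8 proteins, which are attached to the growing autophagosome and bind its cargo receptors, 5 genes were followed, and their sum was 270 ± 13.5 FPKM in ES, 535 ± 15.1 in 2iLIF and 385 ± 7.23 in EPSCM. Gabarapl2 was at 110.2, 86.5 and 90.6 FPKM in ES, 265, 229.9 and 231 in 2iLIF and 159, 172 and 162 in EPSCM. It was highest in 2iLIF and lowest in ES without overlap, and rose by 1.33 ± 0.10 in 2iLIF (adjusted p = 3.06e-06) and by 0.78 ± 0.10 in EPSCM (adjusted p = 8.03e-05). Gabarap was at 46.9, 62.6 and 66.7 FPKM in ES, 112, 141 and 146 in 2iLIF and 81.8, 57.5 and 80.8 in EPSCM. It rose by 1.17 ± 0.18 in 2iLIF (adjusted p = 3.47e-04), while EPSCM overlapped ES and their difference did not pass at 0.31 ± 0.18 (adjusted p = 0.141). The Gabarap value of EPSCM replicate 2 was below 2 of the ES values, and without that library the difference was 0.48 and passed (adjusted p = 0.0274). With the split of the libraries as a covariate the difference of 0.31 passed (adjusted p = 1.17e-05). With the libraries that stand apart left out it was 0.33 (adjusted p = 1.03e-04). The split was taken from these same data, so these fits are no added support for a difference. Over 22 alternative settings the difference ranged from 0.16 to 0.48 (highest adjusted p = 0.414).

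Map1lc3b, which encodes LC3B, the usual marker of autophagosomes, was at 62.8 ± 6.69 FPKM in ES, 94.7 ± 9.76 in 2iLIF and 62.3 ± 7.02 in EPSCM. It rose by 0.59 ± 0.11 in 2iLIF (adjusted p = 0.00122), and EPSCM against ES was -0.01 with a 95% interval from -0.26 to 0.24. Its relative Map1lc3a was highest in EPSCM, 39.4 ± 5.15 FPKM against 29.9 ± 2.83 in ES and 28.5 ± 3.64 in 2iLIF, a difference of 0.38 ± 0.12 from ES (adjusted p = 0.0167). That call was lost without EPSCM replicate 2 (adjusted p = 0.0530) and without ES replicate 2 (adjusted p = 0.0628). Gabarapl1 was also highest in EPSCM, at 46.3 ± 1.70 FPKM against 36.3 ± 0.350 in 2iLIF and 22.5 ± 1.31 in ES, with differences from ES of 1.01 ± 0.06 (adjusted p = 4.6e-07) and 0.67 ± 0.06 (adjusted p = 7.78e-06). The value in EPSCM lies at the fold limit and fell below it without ES replicate 2 (0.96) or without EPSCM replicate 2 (0.98). Among the ATG8 genes, Map1lc3b, Gabarap and Gabarapl2 thus had their 3 highest libraries in 2iLIF, and Map1lc3a and Gabarapl1 in EPSCM.

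Sqstm1, the receptor p62, which ties ubiquitinated cargo to ATG8 proteins, was at 73.7, 65.7 and 64.0 FPKM in ES, 173, 153 and 152 in 2iLIF and 107, 127 and 108 in EPSCM. The media did not overlap, and it rose by 1.22 ± 0.09 in 2iLIF (adjusted p = 2.89e-06) and by 0.74 ± 0.09 in EPSCM (adjusted p = 5.87e-05). Ulk1, the kinase that starts autophagy and is held back by mTORC1, was at 40.8, 36.6 and 37.5 FPKM in ES, 77.9, 70.6 and 72.9 in 2iLIF and 60.1, 67.4 and 59.5 in EPSCM. It rose by 0.93 ± 0.07 in 2iLIF (adjusted p = 3.8e-06) and by 0.69 ± 0.07 in EPSCM (adjusted p = 2.1e-05).

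Wipi1, which reads phosphatidylinositol 3-phosphate on the forming membrane, was at 4.90, 4.17 and 4.30 FPKM in ES, 5.68, 5.16 and 6.10 in 2iLIF and 14.4, 14 and 13.5 in EPSCM. Like Acp5, it passed the fold limit against both other media: mean FPKM was 3.13 times that of ES (log2 difference 1.46 ± 0.08, adjusted p = 3.07e-07) and 2.47 times that of 2iLIF (1.17 ± 0.08, adjusted p = 1.27e-06). Atg9a, the lipid scramblase carried by the vesicles that seed autophagosomes, fell in 2iLIF. It was at 10.4, 9.10 and 9.48 FPKM in ES, 5.78, 5.78 and 5.75 in 2iLIF and 9.51, 10.1 and 8.75 in EPSCM, a difference of -0.65 ± 0.07 for 2iLIF against ES (adjusted p = 3.49e-05), and the ES and EPSCM libraries overlapped.

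The remaining core genes moved little. Becn1, part of the kinase complex that makes phosphatidylinositol 3-phosphate, was at 27.8 ± 1.20 FPKM in ES, 33.3 ± 0.530 in 2iLIF and 36.9 ± 0.363 in EPSCM, higher than in ES by 0.25 ± 0.05 (adjusted p = 0.00149) and 0.40 ± 0.05 (adjusted p = 7.05e-05). Atg5, part of the conjugation machinery of ATG8, was at 15.7 ± 1.36 FPKM in ES, 14.6 ± 0.466 in 2iLIF and 17.7 ± 0.416 in EPSCM, and its EPSCM against ES difference of 0.17 ± 0.07 lay at the threshold (adjusted p = 0.048), a call lost in 13 of 22 alternative settings. Among these were all that left out a single library other than ES replicate 1 (adjusted p = 0.0551 to 0.157). Atg7, the activating enzyme of the same machinery, passed in no comparison, at 6.40 ± 0.543, 7.29 ± 0.701 and 6.26 ± 0.319 FPKM in ES, 2iLIF and EPSCM, though 2iLIF against ES passed at 0.22 without ES replicate 1 (adjusted p = 0.0484). When the fit took the split of the libraries as a covariate, it passed at 0.16 (adjusted p = 0.00489), and EPSCM against 2iLIF passed at -0.19 (adjusted p = 0.00208). Over 22 alternative settings these differences ranged from 0.04 to 0.22 and from -0.27 to -0.12 (highest adjusted p = 0.734 and 0.214).

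Set out by library, 27 of the 41 genes had all 3 ES libraries below the other 6 (65.9%, where 24.7% of all tested genes did). In 17 the 2iLIF libraries were above all others (41.5%, beside 17.6% of tested genes), and these included Mitf, Flcn, Lamp1, Lamp2, Ctsc, Tpp1, Grn, Npc2, Sqstm1 and Ulk1. In 12 the EPSCM libraries were above all others (29.3%, beside 26.6% of tested genes), among them Mcoln1, Ctsb, Ctsz, Hexa, Acp5, Psap, Atp6v0d1, Gabarapl1 and Wipi1. Scarb2, Naglu and Atg9a, 3 of 41, had the 2iLIF libraries below all others, a pattern of 18.7% of tested genes. By means, 18 genes ran 2iLIF, EPSCM, ES from high to low and 12 ran EPSCM, 2iLIF, ES. The shares of all tested genes with these orders were not taken, so the 2 counts are description alone.

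Some measured features of the libraries and the genome moved with these values. In 24 of the 41 genes the library that stands apart was the highest of its medium in all 3 media (58.5%, against 38.4% of tested genes), and in 8 it was the lowest in all 3 (19.5%, against 25.3%): Mitf, Lamp2, Npc1, Scarb2, Acp2, Atp6v1h, Atp6ap1 and Gabarap. With these 3 libraries left out together, 33 genes were higher and 3 lower in EPSCM than in ES, and 32 higher and 6 lower in 2iLIF than in ES. The shares over all tested genes were not taken for that fit, so these counts cannot be read as particular to the 41 genes. On chromosome 1, which holds Atp6v1h and Atg9a, the median log2 difference of tested genes was -0.29 for EPSCM against ES and -0.28 for 2iLIF against ES. The medians of all tested genes were 0.09 and 0.03. In the same order, chromosome 8, with Lamp1, Mcoln1, Atp6v0d1, Map1lc3b and Gabarapl2, had 0.217 and 0.0741. Chromosome X, with Tfe3, Lamp2, Gla and Atp6ap1, had 0.205 and 0.214, and chromosome 14, with Ctsb, -0.0647 and -0.175. The 5 tested genes of chromosome Y, none of them among the 41, had 2.03 and 2.33. The part of these shifts in the values of the genes named was not tested. Several genes share exon bases with a neighbour on the other strand in the GENCODE annotation of GRCm38, Acp2 with Ddb2 over 621 bases, Becn1 with Cntd1 over 1394, Ctsb with Fdft1 over 774, Sqstm1 with Mrnip over 580 and Ctsa with Pltp over 495, and the sources used here do not say whether counting used strand. Of these neighbours, Ddb2 was at 5.04, 11.9 and 12.2 FPKM, and Pltp at 27.6, 40.7 and 51.1 FPKM, in ES, 2iLIF and EPSCM.

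Beyond the 41 genes, 187 other genes of the same pathway were listed, and 172 of them were tested. Against ES, 110 were higher (64.0%) and 29 lower (16.9%) in EPSCM, where 41.6% and 31.5% of all tested genes were. In 2iLIF 102 were higher (59.3%) and 27 lower (15.7%) than in ES, where 34.8% and 32.2% of all tested genes were, and the medians were 0.46 and 0.41. Between EPSCM and 2iLIF, 55 were higher in EPSCM (32.0%) and 58 lower (33.7%), close to the shares over all tested genes, 36.6% and 31.4%.

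Lysosomal hydrolases made up the list with the highest median in EPSCM against ES. Of 38 tested, 31 were higher (81.6%, beside 41.6% of all tested genes) and 4 lower (10.5%, beside 31.5%) in EPSCM than in ES, with a median of 1.01. Past the fold limit were 20 higher (52.6%, beside 11.7%) and 2 lower (5.26%, beside 7.97%). In 2iLIF 26 were higher (68.4%, beside 34.8%) and 4 lower (10.5%, beside 32.2%) than in ES, with a median of 0.54. Gm2a, the activator protein that works with Hexa, was at 5.86 ± 0.494, 9.60 ± 0.592 and 35.0 ± 1.71 FPKM in ES, 2iLIF and EPSCM, and rose by 2.39 ± 0.07 from ES to EPSCM (adjusted p = 2.19e-08). Dnase2a, the acid nuclease, and Dpp7, a dipeptidyl peptidase, were instead highest in 2iLIF, at 50.2 ± 4.61 and 32.6 ± 1.07 FPKM against 33.6 ± 4.44 and 14.9 ± 1.19 in EPSCM.

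Of 26 tested membrane genes outside the 41, 19 were higher (73.1%, beside 41.6% of all tested genes) and 3 lower (11.5%, beside 31.5%) in EPSCM than in ES, with a median of 0.69. In 2iLIF 15 were higher (57.7%, beside 34.8%) and 4 lower (15.4%, beside 32.2%), with a median of 0.60. The tetraspanin Cd63 was at 77.6 ± 0.634 FPKM in ES, 363 ± 1.22 in 2iLIF and 303 ± 4.13 in EPSCM. Between the latter media Laptm4b was 1.57 ± 0.07 higher and Laptm5 fell by 1.40 ± 0.06 in EPSCM against 2iLIF (adjusted p = 1.41e-07 and 1.16e-07). Of 15 tested proton pump genes outside the 41, 12 were higher (80.0%, beside 41.6%) and 1 lower (6.67%, beside 31.5%) in EPSCM than in ES. In 2iLIF 14 were higher (93.3%, beside 34.8%) and 1 lower (6.67%, beside 32.2%) than in ES, and the medians were 0.71 in EPSCM and 0.74 in 2iLIF. Atp6ap2, the partner of Atp6ap1, was at 18 ± 2.16 FPKM in ES, 59.4 ± 4.43 in 2iLIF and 54.4 ± 5.62 in EPSCM, and Atp6v1a, the catalytic subunit, at 28.9 ± 1.88, 71.3 ± 2.42 and 77.3 ± 1.70.

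Sorting and fusion genes, which bring enzymes to the lysosome and join it to other vesicles, gave 19 higher (73.1%, beside 41.6% of all tested genes) and 3 lower (11.5%, beside 31.5%) of 26 in EPSCM against ES (median 0.37). In 2iLIF against ES 19 were higher (73.1%, beside 34.8%) and 2 lower (7.69%, beside 32.2%), with a median of 0.45. The fold limit was passed upwards by 2 in each of these comparisons (7.69%, beside 11.7% and 7.62% of all tested genes), Igf2r and Vps39 in EPSCM and Gnptg and Ap3b1 in 2iLIF. Igf2r, the large mannose 6-phosphate receptor, was at 15.3 ± 0.466 FPKM in ES, 29.7 ± 0.277 in 2iLIF and 54.3 ± 0.601 in EPSCM, and rose by 1.76 ± 0.05 from ES to EPSCM (adjusted p = 1.03e-08).

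Of 28 core autophagy genes, 12 were higher (42.9%) and 9 lower (32.1%) in EPSCM than in ES, close to the 41.6% and 31.5% of all tested genes, with a median of 0.16. In 2iLIF 10 were higher (35.7%, beside 34.8%) and 7 lower (25.0%, beside 32.2%), with a median of 0.17. Past the fold limit in EPSCM against ES were 3 higher (10.7%, beside 11.7% of all tested genes) and 3 lower (10.7%, beside 7.97%). The 3 higher, Ulk2, Atg16l2 and Atg10, named after their values were seen, differed by 1.37 ± 0.06, 1.21 ± 0.07 and 1.13 ± 0.21 at means below 5 FPKM in each medium, and the 3 lower were Wdr45, Atg101 and Pik3c3. Wdr45, like Wipi1 a reader of phosphatidylinositol 3-phosphate, was at 19.2 ± 2.11 FPKM in ES, 40.2 ± 2.67 in 2iLIF and 5.38 ± 0.626 in EPSCM. It fell by 1.66 ± 0.10 from ES to EPSCM (adjusted p = 6.63e-07), where Wipi1 rose. Atg101, a partner of Ulk1, and Pik3c3, the kinase that Becn1 belongs with, also fell from ES to EPSCM, from 89.5 ± 9.28 to 36.9 ± 3.30 FPKM and from 22.8 ± 1.65 to 10.5 ± 1.07 FPKM. Of 14 autophagy receptors, 8 were higher (57.1%, beside 41.6%) and 2 lower (14.3%, beside 31.5%) in EPSCM than in ES, and 7 higher (50%, beside 34.8%) and 3 lower (21.4%, beside 32.2%) in 2iLIF than in ES. Bnip3, a receptor for mitochondria and a target of hypoxia-inducible factor, was at 35.6 ± 5.31 FPKM in ES, 9.89 ± 2.14 in 2iLIF and 160.1 ± 28.7 in EPSCM.

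Genes of mTORC1 and nutrient sensing at the lysosome gave 9 higher (36.0%) and 7 lower (28.0%) of 25 in EPSCM against ES, near the 41.6% and 31.5% of all tested genes, with a median of 0.12. In 2iLIF against ES 11 were higher (44.0%, beside 34.8%) and 6 lower (24%, beside 32.2%), also with a median of 0.12. Past the fold limit in EPSCM against ES were 4 higher (16%, beside 11.7% of all tested genes) and 2 lower (8%, beside 7.97%). In 2iLIF against ES 3 were higher past that limit (12%, beside 7.62%). The 2 lower in EPSCM were Rragb, another Rag GTPase, and Sesn2, a sensor of leucine, which fell by 1.23 ± 0.08 and 1.20 ± 0.10 from ES. Sesn1, 1 of the 4 higher, rose by 1.10 ± 0.15 from ES to EPSCM, from 7.33 to 16.9 FPKM (adjusted p = 1.36e-04). Rragb, Sesn2 and Sesn1 were named after their values were seen. Fnip1 was at 2.42 ± 0.560 FPKM in ES, 9.68 ± 2.05 in 2iLIF and 8.83 ± 2.05 in EPSCM, and Fnip2 at 7.16 ± 0.150, 27.4 ± 0.833 and 15.1 ± 0.509. Rragd, one of the Rag GTPases on which Flcn acts, was at 3.02 ± 0.467 FPKM in ES, 10.2 ± 1.53 in 2iLIF and 8.71 ± 1.19 in EPSCM. For Fnip1 and Rragd the difference from ES passed the fold limit in both media, 1.64 ± 0.20 and 1.48 ± 0.14 in 2iLIF and 1.51 ± 0.20 and 1.27 ± 0.14 in EPSCM. Fnip2 passed that limit in 2iLIF, at 1.80 ± 0.05. Tsc1, a brake on mTORC1, rose by 1.54 ± 0.05 from ES to EPSCM, from 6.83 ± 0.114 to 21.7 ± 0.591 FPKM (adjusted p = 2.77e-08).

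**Figure D4:**
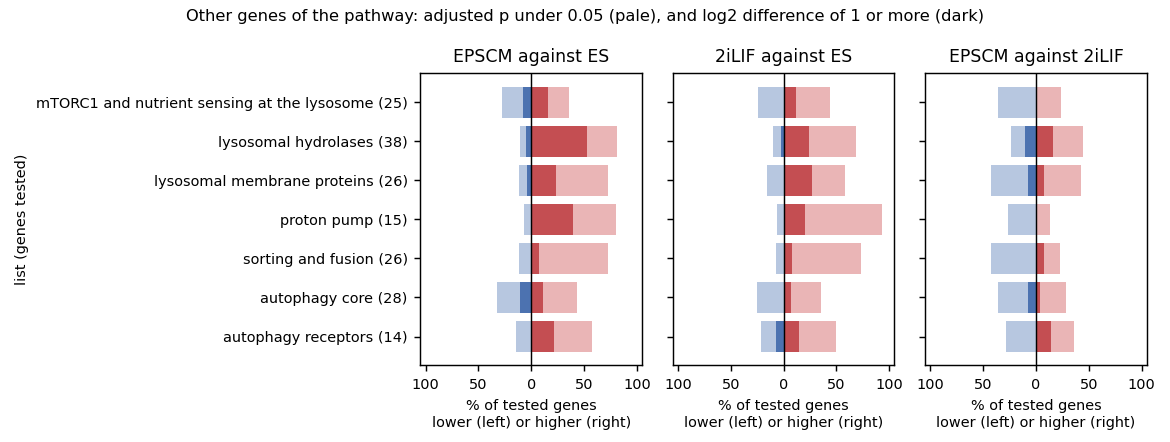
Percent of the tested genes of each of 7 other lists of the pathway that were higher (right) or lower (left) in each comparison, at an adjusted p under 0.05 (pale) and also past the fold limit (dark). Hydrolases, membrane and proton pump genes lie mostly to the right against ES, and core autophagy and mTORC1 genes are spread to both sides.

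Markers of other cell types were measured beside these values. Of 8 fibroblast markers, Dcn, Lum, Postn and Col3a1 were near 0 in all libraries, and the summed level was 15.0 to 17.6 FPKM in ES, 3.75 to 4.18 in 2iLIF and 10.9 to 13.7 in EPSCM, with Thy1 at 14.4, 0.410 and 6.02 FPKM and Pdgfrb at 1.29, 3.28 and 5.74 FPKM in ES, 2iLIF and EPSCM. Primitive endoderm markers summed to 5.76 to 6.45, 2.99 to 3.38 and 9.77 to 10.5 FPKM in the same order over 7 genes, with Gata4 at 0.817, 1.19 and 3.22 FPKM, Gata6 at 0.675, 0.258 and 3.17 FPKM and Sox7 at 2.79, 0.0422 and 0.0315 FPKM. Trophoblast markers summed to 18.7 to 21.2, 26.9 to 30.0 and 41 to 47.6 FPKM over 6 genes, most of it Tfap2c. The others did not all follow that order: Cdx2 was at 0.109, 2.85 and 0.0411 FPKM and Eomes at 1.03, 3.30 and 4.40 FPKM. Elf5, Gata3 and Hand1 had means below 1 FPKM in each medium. The 9 stress response genes summed to 580 to 670.0 FPKM in ES, 735 to 875 in 2iLIF and 532 to 636 in EPSCM, with members that differ in direction: Atf4 was at 237, 199.9 and 75.7 FPKM and Ddit3 at 11.5, 11.3 and 59.3 FPKM in ES, 2iLIF and EPSCM. The part of these in the differences above was not tested.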

How the data were processed

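Messenger RNA of mouse E14 cells was sequenced in 9 libraries, 3 for each of 3 media. Total RNA was extracted by column with DNase treatment and made into stranded libraries, per the labels' protocols. The authors deposited 1 FPKM value per gene and library, made with STAR and Cuffnorm against mm9, per the submitters' processing notes. Tool versions, the annotation, the scaling and the strand setting were not given in the sources used here. Because FPKM is relative to a library total, abundant genes can shift the others, and no counts or depths can be read from it.

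Each column was matched to its sample by name. FPKM was taken as log2(FPKM + 1), a gene was kept if 3 of 9 libraries reached 1 FPKM (12330 genes), and 1 limma model (limma 3.58.1, R 4.3.3, 1 mean for each medium, variance prior with a trend) gave the 3 comparisons, two-sided, with Benjamini-Hochberg adjustment over all 12330 genes. The code was tested on simulated data. The 41 genes, the lists, the tests and the libraries that stand apart were chosen with earlier results of these data known. All 41 genes are named. Of the other pathway genes, up to 3 per list and comparison were eligible, those with the largest difference past the threshold and the fold limit whose higher medium reached a mean of 5 FPKM, and not every eligible gene is printed. Alternatives changed the pseudocount, filter, scaling, spread, genes or libraries used. Vamp7 had no row under that symbol. Promoters are RefSeq windows of GRCm38.p6, matched by symbol.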

Additional observations from a re-analysis of the deposited data

How the results depend on the processing

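Over 22 alternative settings, no count of the 41 genes called in a direction moved by more than 1.5 times in any of the 3 comparisons. Of 2694 values of single genes under these settings, 2600 kept their side of the threshold, 51 lost the call and 42 gained one. Some of the 2600 that passed in neither fit changed sign. Scarb2 in EPSCM against ES, for example, was -0.04 in the main fit and 0.11 without EPSCM replicate 2. A single value changed sign and passed: Acp2 in EPSCM against ES was -0.22 with quantile normalization. Averaging the close libraries of a medium, which leaves fewer samples, lost 15 calls. Making the libraries that stand apart a covariate gained 12, and leaving them out gained 10. That split was taken from these same data, so the calls gained with it are no added support. At the fold limit, the EPSCM against ES calls of Gabarapl1 and Atp6v0d1 were lost with scaling to the same median ratio, at 0.90 and 0.94, and Mitf in EPSCM against 2iLIF, -0.99, passed the limit with a pseudocount of 0.1, at -1.13. No paired analysis was possible because the labels give the media no shared replicate numbers. The table gives no fragment counts, so the depth that limits the lowest genes, such as Naglu, is unknown.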
